A study of Mus musculus with 4 samples.

Results

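The FACIT collagens (fibril-associated collagens with interrupted triple helices) and the transmembrane collagens were followed in Osr1+ limb cells, as 10 genes chosen by symbol out of 23284 genes counted. The FACIT genes were *Col12a1*, *Col14a1*, *Col16a1*, *Col19a1*, *Col20a1* and *Col22a1*. The transmembrane genes were *Col13a1*, *Col17a1*, *Col23a1* and *Col25a1*. All 10 genes had enough counts to be tested. RNA was sequenced from GFP-expressing live cells, sorted by FACS from C57BL/6J limbs at E13.5 and labelled as mesenchymal cells. The cells came from 2 *Osr1* GCE/+ (heterozygous) embryos and 2 *Osr1* GCE/GCE (homozygous) embryos. GCE is an eGFP-IRES-CreERt2 cassette knocked into *Osr1*, the gene of an odd-skipped zinc finger transcription factor. Both groups therefore carried the cassette and were sorted by the reporter of the locus that was disrupted, and the heterozygous cells served as controls in place of wild-type cells.

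FACIT collagens do not form fibrils of their own. They attach through short triple-helical stretches to the surface of fibrils made of types I, II, III, V or XI collagen, and their large non-collagenous amino-terminal arms reach into the space between fibrils, where they set spacing and contacts. Transmembrane collagens sit in the plasma membrane with the amino terminus inside the cell and a collagenous ectodomain outside, and proteases can release that ectodomain. In limbs, types XII and XIV are known from tendon, fascia and muscle connective tissue, type XXII from the myotendinous junction, and types XIII and XXV from the contact of motor axons with muscle.

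The longest annotated protein of each gene was read for runs of at least 5 Gly-X-Y triplets, the repeat of a collagen helix. The share of residues in such runs overlapped between the 2 classes. Such runs made up 8.1% of the 3065 residues encoded by *Col12a1*, 13.8% of the 1798 residues encoded by *Col14a1* and 11.0% of the 1362 residues encoded by *Col20a1*. The other FACIT chains were mostly collagenous, with 58.9% in *Col19a1*, 62.1% in *Col16a1* and 63.2% in *Col22a1*. Among the transmembrane chains the share was 34.1% in *Col17a1*, 69.4% in *Col23a1*, 70.6% in *Col13a1* and 71.2% in *Col25a1*. The most hydrophobic stretch of 19 residues had a mean Kyte-Doolittle hydropathy, a scale on which higher is more hydrophobic, of 2.25 to 2.65 in the 4 transmembrane chains and of 1.18 to 1.97 in the 6 FACIT chains. It lay at residues 36 to 54 of the *Col25a1* chain, 25 to 43 of the *Col23a1* chain, 41 to 59 of the *Col13a1* chain and 480 to 498 of the *Col17a1* chain. The *Col17a1* chain thus had a long segment before this stretch, and the other 3 had a short one.

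**Figure D1:**
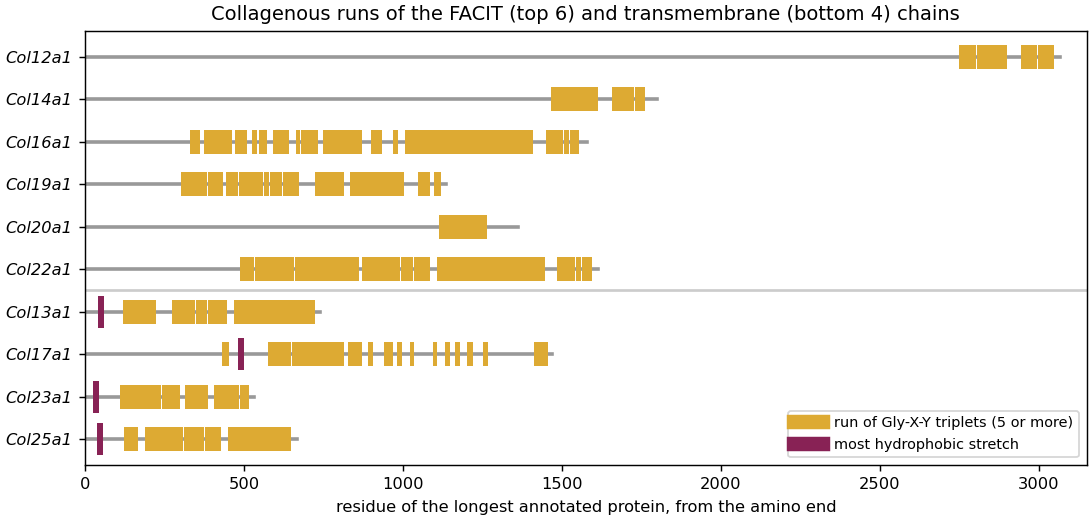
Layout of the 10 chains, with residue number from the amino end on the x axis and 1 chain per line. Boxes are runs of at least 5 Gly-X-Y triplets, and the tall dark bar on the 4 transmembrane chains is their most hydrophobic 19 residues. The collagenous runs of *Col12a1*, *Col14a1* and *Col20a1* sit at the carboxyl end of long chains, and the hydrophobic bar of *Col17a1* lies at residue 480.

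Counts per sample summed to 52121596 to 61402140, and 3 counts in the smallest library amount to 0.0576 CPM (counts scaled to the library total, after TMM normalization). *Osr1* had 81.9 and 79.1 CPM in GCE/+ replicates 1 and 2 and 11.9 and 13.9 CPM in GCE/GCE replicates 1 and 2, and its log2 fold change of -2.64 ± 0.11 (SE) passed edgeR's quasi-likelihood test (adjusted p = 7.17e-05). *Xist*, which is expressed from an inactive X chromosome, stood at 1142 CPM in the first GCE/GCE replicate, and no other library exceeded 2.63 CPM. By this gene GCE/GCE replicate 1 was the only female sample, so sex was not balanced between the genotypes. Within GCE/GCE, sex and replicate cannot be told apart, also where a result below turned on that library. The mesenchymal genes *Pdgfra* and *Prrx1* had at least 833 and 438 CPM in every library. In RNA from a pool of cells, fewer cells of a type and less RNA per cell cannot be told apart. With 2 samples per genotype, values are given for each sample. The p-values rest on the spread between these embryos and on variance shared across genes. In edgeR's fit 6.339 of a median 8.339 degrees of freedom came from other genes.

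Levels of the 10 genes spanned more than 2 orders of magnitude per length. Per kilobase of exon, *Col12a1* was highest in the 2 GCE/+ samples, with a mean of 51.3 CPM per kb, followed by *Col16a1* with 42.1, *Col14a1* with 40.1 and *Col23a1* with 29.0 CPM per kb. A middle pair followed, *Col25a1* with 8.03 and *Col13a1* with 3.44 CPM per kb. The other 4 genes were low, with 1.11 CPM per kb for *Col20a1*, 0.510 for *Col19a1*, 0.372 for *Col22a1* and 0.297 for *Col17a1*. In the GCE/+ samples *Col22a1* and *Col17a1* were the only neighbours in this order whose samples overlapped. The order was the same in the GCE/GCE samples, where *Col14a1* overlapped *Col23a1* and *Col20a1* overlapped *Col19a1*. With coding length in place of exon length *Col23a1* came first, since only 1596 of its 5658 exonic nucleotides are coding, and 5 of the 10 ranks moved.

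Against all 43 collagen genes, the 10 genes made up 3.58% and 3.86% of the summed collagen CPM per kb in the GCE/+ samples and 4.25% and 4.18% in the GCE/GCE samples. The fibrillar chains *Col3a1*, *Col1a2* and *Col1a1* together made up 68.2% and 66.4% of that sum in GCE/+ samples and 63.2% and 61.9% in GCE/GCE samples. *Col12a1* alone made up at most 1.58% in any sample.

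**Figure D2:**
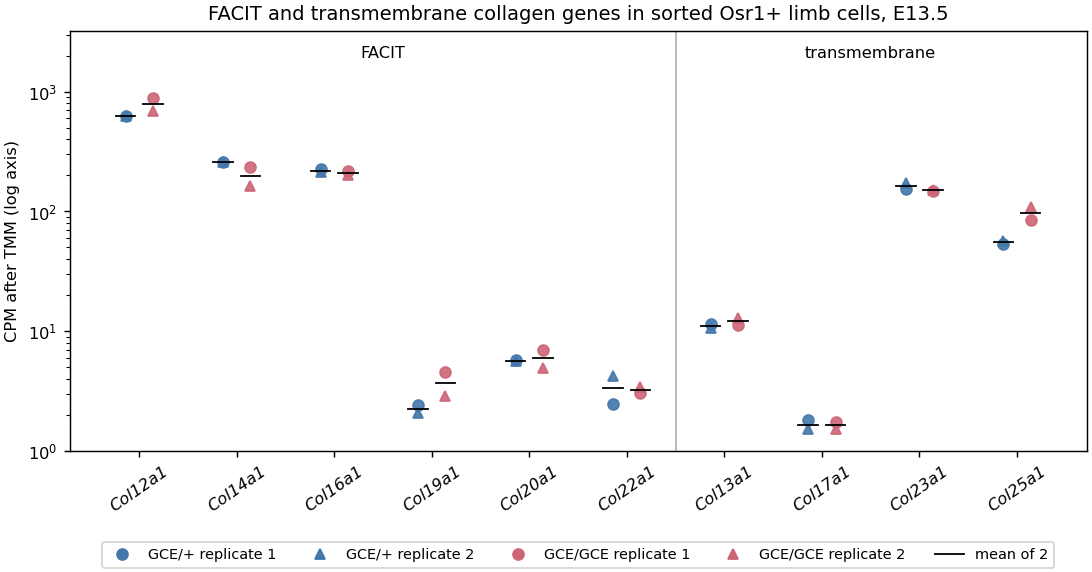
CPM after TMM scaling (log axis) of the 10 genes in each of the 4 samples, FACIT genes on the left and transmembrane genes on the right. Points are samples (circle, replicate 1; triangle, replicate 2) and lines are means of 2. *Col25a1* lay at 53.8 and 57.1 CPM in GCE/+ and 84.4 and 109 CPM in GCE/GCE, and *Col12a1* was the most abundant gene in every sample.

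The question put to these 10 genes was whether their transcript levels differed between *Osr1*-deficient cells and heterozygous cells. One transmembrane gene, *Col25a1*, was higher in GCE/GCE cells by 1.75-fold, and none of the 6 FACIT genes among the 10 passed the test. At an adjusted p of 0.1 in edgeR's quasi-likelihood test, 1 of 10 genes was higher in GCE/GCE cells and 0 of 10 were lower, beside 0.888% and 0.895% of the 15645 genes tested. By DESeq2 the counts were again 1 higher and 0 lower, beside 1.77% and 1.69% of 14707 genes. An unadjusted p under 0.05 was reached by 4 of the 10 genes, *Col25a1*, *Col19a1* and *Col12a1* with higher values in GCE/GCE and *Col14a1* with lower values, beside 10.5% of all genes. Both GCE/GCE samples lay above both GCE/+ samples in 3 of 10 genes and below them in 2 of 10 genes, beside 19.2% and 19.1% of all genes. The median log2 fold change of the 10 genes was 0.02, that of the other 33 collagen genes was 0.13 and that of all genes was 0.00. Among those 33 collagen genes 4 were higher and 0 lower by edgeR, with 5 lower at an unadjusted p under 0.05, and 5 were higher and 4 lower by DESeq2.

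**Figure D3:**
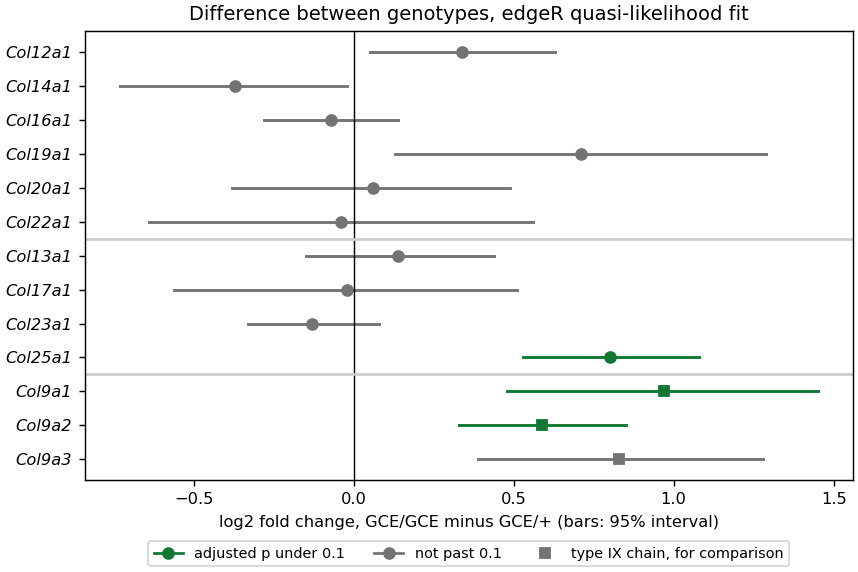
Log2 fold change of GCE/GCE over GCE/+ for the 6 FACIT genes (top), the 4 transmembrane genes (middle) and, as squares, the 3 type IX chains (bottom), with 95% intervals from edgeR's fit. Green marks genes past an adjusted p of 0.1. *Col25a1* at 0.80 is the only green point among the 10 genes, and the intervals of *Col12a1*, *Col19a1* and *Col14a1* also leave out 0.

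*Col25a1* encodes the type XXV chain, a neuronal and muscle membrane collagen that is also known as the precursor of a component of amyloid plaques and is needed for motor axons to enter muscle. Its gene lies at chr3:130180358-130599884 (GRCm38, plus strand). It had 3275 and 2987 counts in the GCE/+ samples and 4900 and 6684 counts in the GCE/GCE samples, which is 53.8 and 57.1 CPM against 84.4 and 109 CPM. Both GCE/GCE samples were above both GCE/+ samples, and the GCE/GCE samples differed from each other by 0.37 on the log2 scale. The log2 fold change was 0.80 ± 0.12 (SE; 95% interval 0.53 to 1.08; edgeR's quasi-likelihood test, adjusted p = 0.0299). Across 14 alternative analyses it ranged from 0.61 to 0.97, with adjusted p from 2.06e-09 to 0.0664, and it passed the threshold in each. The lower end was reached without GCE/GCE replicate 2 and the upper end without GCE/GCE replicate 1.

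Because *Col25a1* was the gene that differed and *Osr1* encodes a DNA-binding factor, the promoter of *Col25a1* is shown. It is the stretch of 250 bases before the start used in the RefSeq promoter set, chr3:130180595-130180844 on the plus strand of GRCm38.p6, 5′ to 3′. The gene position given above, also from RefSeq, begins upstream of the start used here. The 2 starts therefore disagree, and this window falls inside the gene at that position. No GENCODE exon overlaps the window. Capitals mark a CCAAT box (letters CCAAT) and 2 GC boxes (letters GGGCGG), searched on both strands. The first GC box is on the opposite strand and therefore reads CCGCCC.

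Col25a1 promoter: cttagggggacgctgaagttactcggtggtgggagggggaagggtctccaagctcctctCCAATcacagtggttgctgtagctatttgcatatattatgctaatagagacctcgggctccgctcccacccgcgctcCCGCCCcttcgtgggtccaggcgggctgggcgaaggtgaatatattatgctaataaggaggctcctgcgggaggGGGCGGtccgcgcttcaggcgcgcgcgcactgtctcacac

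CCAAT occurs in 33.8% and GGGCGG in 32.7% of 32851 RefSeq promoter windows of the same kind, so neither is rare. The odd-skipped consensus GCTACTGT occurs in 0.749% of those windows, and it was not found in the windows of the 7 genes that had one, *Col16a1*, *Col19a1*, *Col20a1*, *Col13a1*, *Col17a1*, *Col23a1* and *Col25a1*. These letters were searched in this window only, which says nothing about where Osr1 binds. A TATA box (letters TATAAA, 12.4% of all windows) was found in the windows of *Col13a1* and *Col17a1*. An E-box (letters CANNTG, 66.2% of all windows) was found in those of *Col16a1*, *Col19a1*, *Col13a1*, *Col17a1* and *Col23a1* and not in that of *Col25a1*.

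Since type XXV collagen is made by muscle cells, muscle markers were set beside it. None of the 7 muscle genes tested passed the threshold by edgeR, with 2 higher at an unadjusted p under 0.05, and 1 was higher by DESeq2. Both GCE/GCE values lay above both GCE/+ values in 3 of the 7, *Myod1*, *Myh3* and *Ttn*, and below them in 0. *Ttn* rose from 8.56 and 10.7 CPM to 14.3 and 14.3 CPM (adjusted p = 0.0382, DESeq2). *Myh3* had 29.8 and 37.1 CPM in GCE/+ and 44.8 and 41.8 CPM in GCE/GCE. Their summed level, over 8 genes, was 141 and 161 CPM in GCE/+ samples and 187 and 161 CPM in GCE/GCE samples, so the groups touched at 161. *Myog*, a defining gene of differentiating muscle, had 24.4 and 27.6 CPM in GCE/+ and 27.6 and 24.1 CPM in GCE/GCE, and *Ckm*, a gene of mature muscle, was at 0 in 1 library and at most 0.268 CPM in the others. *Col25a1* had 2.21 and 2.07 times the CPM of *Myog* in GCE/+ samples and 3.06 and 4.53 times in GCE/GCE samples. This ratio was formed after the values were seen and was not tested. *Myog* overlapped between the genotypes, and no ratio to *Ttn* or *Myh3*, which were higher in GCE/GCE samples, was formed. Cartilage markers moved with genotype. Of 12 tested, 4 were higher (the type IX chains *Col9a1* and *Col9a2*, *Sox9* and *Matn4*), and in all 12 both GCE/GCE values were above both GCE/+ values. Their sum was 778 and 1189 CPM in GCE/+ and 1637 and 1807 CPM in GCE/GCE. Macrophage markers went the other way, with 6 of 9 lower and a sum of 268 and 277 CPM in GCE/+ and 169 and 120 CPM in GCE/GCE. The part of muscle, cartilage or macrophage cells in the *Col25a1* difference was not tested.

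*Col23a1*, whose product is a shed membrane collagen that binds integrin α2β1, was the most abundant transmembrane gene at 154 and 173 CPM in GCE/+ and 149 and 151 CPM in GCE/GCE. All 4 samples lay within a narrow range, and both GCE/GCE values were just under both GCE/+ values. The log2 fold change was -0.13 ± 0.09 (SE), with a 95% interval of -0.33 to 0.08. Set against *Col23a1* within each library, a comparison chosen after the values were seen and not tested, *Col25a1* had 0.349 and 0.329 times the CPM of *Col23a1* in GCE/+ samples and 0.566 and 0.723 times in GCE/GCE samples.

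*Col13a1* encodes a membrane collagen of the neuromuscular junction and other adhesion sites. It had 11.4 and 10.6 CPM in GCE/+ and 11.2 and 13.0 CPM in GCE/GCE, and the groups overlapped. The log2 fold change was 0.14, with an interval of -0.15 to 0.44. *Col17a1* encodes a hemidesmosome component of basal keratinocytes, and its 79 to 110 counts per library came to 1.81 and 1.51 CPM in GCE/+ and 1.76 and 1.52 CPM in GCE/GCE. Its interval of -0.56 to 0.51 around -0.02 is wide and is not a limit of detection. A change within that range in either direction was not excluded. Keratinocyte markers were low throughout, with *Krt5* at 3.07 to 4.13 CPM and a summed level over 8 epidermal genes of 17.7 and 20.0 CPM in GCE/+ and 18.4 and 19.0 CPM in GCE/GCE. None of those 8 genes passed the test by edgeR or by DESeq2, and 3 had an unadjusted p under 0.05.

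*Col12a1*, whose type XII product links collagen fibrils in tendon and in the connective tissue around muscle, lies at chr9:79598987-79721141 (GRCm38, minus strand). It was the most abundant of the 10 genes and ranked 158 of all genes by mean GCE/+ CPM, with 624 and 623 CPM in the GCE/+ samples and 884 and 691 CPM in the GCE/GCE samples. The GCE/+ samples were nearly equal and both GCE/GCE samples were higher, replicate 1 by far the more. The log2 fold change was 0.34 ± 0.13 (SE; 95% interval 0.05 to 0.63) and did not pass edgeR's test (adjusted p = 0.366). Replicate 1 of the GCE/GCE samples decided its size, since edgeR's fit without it gave 0.14 (adjusted p = 1.000) and the fit without GCE/GCE replicate 2 gave 0.50 (adjusted p = 0.0971), which passed. *Col12a1* also has the longest transcript of the 10 genes, 12154 exonic nucleotides, and with offsets for a trend of counts on transcript length its log2 fold change was 0.17 (adjusted p = 0.741 in edgeR's fit). Tendon markers, of which 3 of 8 were higher and 1 was lower by edgeR, moved with genotype as single genes more than as a sum. *Tnmd*, which encodes the tendon membrane protein tenomodulin, rose from 15.8 and 7.88 CPM to 50.4 and 48.9 CPM (adjusted p = 0.0220, edgeR), and *Mkx*, which encodes a tendon transcription factor, rose from 25.0 and 23.2 CPM to 48.0 and 54.4 CPM (adjusted p = 0.0107, edgeR). The third was *Fmod*, and *Kera* was the lower one. By DESeq2 4 of the 8 were higher and 1 was lower. The fourth was the tendon gene *Scx*, from 9.99 and 7.10 CPM to 13.6 and 13.8 CPM (adjusted p = 0.0184 by DESeq2 and 0.125 by edgeR). The *Tnmd* call was lost in a robust fit (adjusted p = 0.122, edgeR). The sum over the 8 genes, 2133 and 1682 CPM in GCE/+ and 2332 and 1726 CPM in GCE/GCE, was mostly the immediate early gene *Egr1*, with 1706 and 1321 CPM in GCE/+ and 1839.5 and 1269 CPM in GCE/GCE. The part of tendon cells in the *Col12a1* values was not tested.

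*Col14a1*, whose type XIV product limits the lateral growth of fibrils in tendon and dermis, lies at chr15:55307644-55520803 (GRCm38, plus strand). It had 259 and 258 CPM in the GCE/+ samples and 236 and 163 CPM in the GCE/GCE samples. Both GCE/GCE samples were lower, replicate 2 by more than replicate 1. The log2 fold change was -0.37 ± 0.16 (SE; 95% interval -0.73 to -0.02) and did not pass edgeR's test (adjusted p = 0.442). Replicate 2 of the GCE/GCE samples decided it: edgeR's fit without that sample gave -0.13 (adjusted p = 1.000), and the fit without GCE/GCE replicate 1 gave -0.67 (adjusted p = 0.00152), which passed.

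*Col12a1* and *Col14a1* encode FACIT chains alike in build, each with 249 residues in Gly-X-Y runs and a longest run of 96 residues. Their differences between genotypes had opposite signs, and the ratio of *Col12a1* to *Col14a1* CPM was 2.41 in both GCE/+ samples and 3.74 and 4.23 in the GCE/GCE samples. The 2 GCE/GCE samples were closer to each other in this ratio than in the level of either gene, and neither overlapped the GCE/+ samples. This ratio was formed after the values were seen and was not tested. Set against *Col1a1*, a chain of the fibrils to which both attach, *Col12a1* was at 0.169 and 0.200 times its CPM in GCE/+ samples and 0.255 and 0.263 times in GCE/GCE samples, and *Col14a1* was at 0.0704 and 0.0831 times against 0.0682 and 0.0622 times.

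*Col16a1* encodes a FACIT found in skin and cartilage matrix that binds integrin α1β1. It had 226 and 212 CPM in GCE/+ and 217 and 201 CPM in GCE/GCE. The groups overlapped, and the log2 fold change of -0.07 had a 95% interval of -0.28 to 0.14. This was one of the narrowest intervals among the 10 genes, with at least 11094 counts behind each value.

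*Col19a1*, whose type XIX product is found at basement membrane zones and was first described in rhabdomyosarcoma cells, lies at chr1:24257683-24587922 (GRCm38, minus strand). It was low, with 148 and 109 counts in GCE/+ and 263 and 176 counts in GCE/GCE, or 2.43 and 2.08 CPM against 4.53 and 2.88 CPM. Both GCE/GCE samples were above both GCE/+ samples, replicate 1 by more. The log2 fold change was 0.71 ± 0.25 (SE; 95% interval 0.13 to 1.29) and did not pass edgeR's test (adjusted p = 0.330). Without GCE/GCE replicate 1 it was 0.34 (adjusted p = 0.991) and without GCE/GCE replicate 2 it was 1.00 (adjusted p = 0.0301) in edgeR's fit, so that its call too depended on a single library.

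*Col20a1* and *Col22a1* were the remaining low FACIT genes. *Col20a1*, a FACIT described in tendon, cartilage and embryonic skin, had 5.76 and 5.62 CPM in GCE/+ and 6.94 and 4.93 CPM in GCE/GCE. The GCE/+ values fell between the GCE/GCE values, and the interval of the log2 fold change ran from -0.38 to 0.49. *Col22a1*, the FACIT of the myotendinous junction, had 2.46 and 4.21 CPM in GCE/+ and 3.03 and 3.41 CPM in GCE/GCE. Here the GCE/GCE values fell between the GCE/+ values, which differed by 0.77 on the log2 scale, and the interval ran from -0.64 to 0.56. The sign of both genes turned when single libraries were left out.

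**Figure D4:**
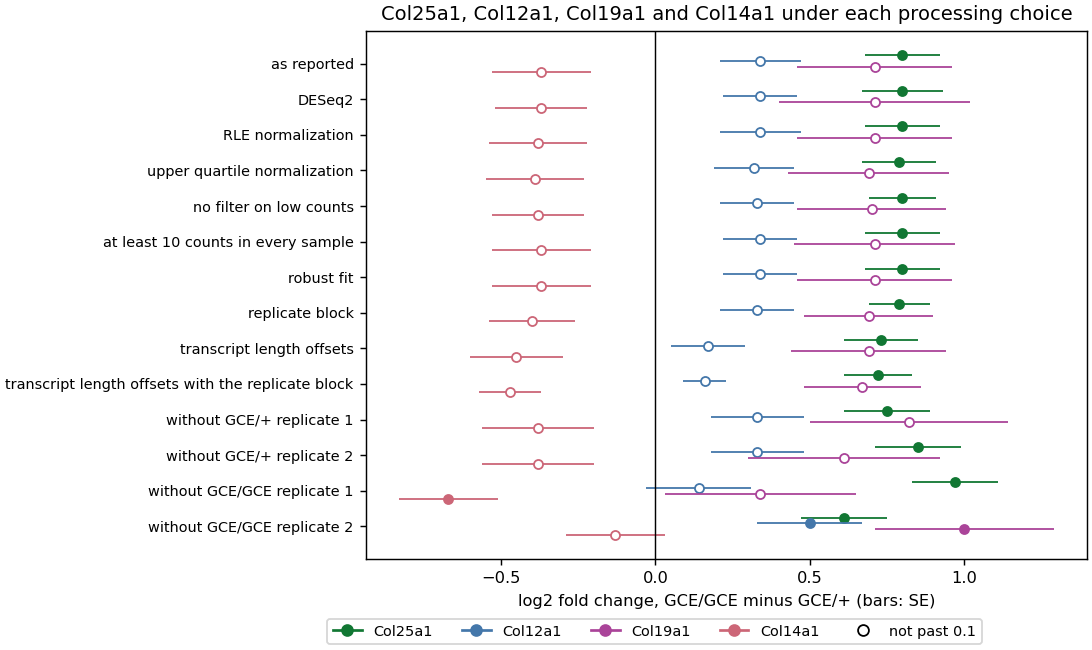
Log2 fold change (GCE/GCE minus GCE/+) of *Col25a1*, *Col12a1*, *Col19a1* and *Col14a1* under each analysis setting, with SE as bars. Filled points passed an adjusted p of 0.1 and open points did not. *Col25a1* stays between 0.61 and 0.97 and filled throughout, and the other 3 genes fill only where 1 of the GCE/GCE libraries is left out.

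Type IX collagen is the FACIT of cartilage fibrils and was kept apart from the 10 genes as a comparison. *Col9a1* had 48.5 and 84.9 CPM in GCE/+ and 125 and 135 CPM in GCE/GCE, and *Col9a2* had 89.9 and 108 CPM against 139 and 160 CPM. *Col9a3* had 48.5 and 77.9 CPM against 102 and 123 CPM, so all 3 chains were without overlap. The log2 fold changes were 0.97, 0.59 and 0.83, with adjusted p of 0.0960, 0.0678 and 0.112 by edgeR's quasi-likelihood test, so that *Col9a1* and *Col9a2* rose. By DESeq2 only *Col9a2* passed, with adjusted p of 0.290, 0.000313 and 0.353, and without GCE/+ replicate 1 edgeR's adjusted p for *Col9a2* was 0.128. Without that replicate *Col9a1* was at 0.61, and without GCE/+ replicate 2 it was at 1.43. The difference between the type IX chains and the 6 FACIT genes, whose median log2 fold change was 0.01, was not tested.

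Of the 9 fibrillar chains to which FACITs attach, 1 rose and 0 fell by edgeR, and 1 was higher and 2 were lower by DESeq2. An unadjusted p under 0.05 was reached by 3 chains with higher values, the cartilage fibril chains *Col2a1*, *Col11a1* and *Col11a2*, and by 2 with lower values. The chain that rose was *Col11a1*, a core chain of cartilage fibrils, from 256 and 325 CPM to 501 and 500 CPM (log2 fold change 0.78, adjusted p = 0.0343 by edgeR). The 2 lower chains were *Col3a1* and *Col5a3*. *Col3a1* went from 9550 and 8788 CPM to 7718 and 6846 CPM (log2 fold change -0.33, adjusted p = 0.0519 by DESeq2 and 0.274 by edgeR). *Col5a3* was at -0.82 on the log2 scale (adjusted p = 0.0356 by DESeq2 and 0.142 by edgeR). *Col3a1* and *Col1a2* were the most abundant, at 6846 CPM or more and 4483 CPM or more in every sample. *Col2a1* and *Col11a2* were at 0.84 and 0.98 on the log2 scale without passing edgeR's test (adjusted p = 0.106 and 0.133), and they passed in 8 and 7 of the 14 alternatives. The median of the 9 chains, which differed in both directions, was -0.08.

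Among 13 partners on the fibril surface, 2 rose and 1 fell by edgeR, and 3 were higher and 3 lower by DESeq2, with a median of -0.02. *Fmod*, which encodes the tendon and cartilage proteoglycan fibromodulin, rose by 0.79 on the log2 scale (adjusted p = 0.0268, edgeR), and *Tnc*, which encodes tenascin-C, a binding partner of type XII collagen, rose by 0.44 (adjusted p = 0.0833, edgeR). *Kera*, which encodes the proteoglycan keratocan, fell by 0.71 on the log2 scale (adjusted p = 0.0220, edgeR). The genes that passed by DESeq2 and not by edgeR were *Comp*, the gene of a cartilage and tendon matrix protein, at 1.07 on the log2 scale (adjusted p = 0.00811), and the proteoglycan genes *Dcn* at -0.68 (adjusted p = 0.00106) and *Lum* at -0.34 (adjusted p = 0.0662). Their adjusted p by edgeR was 0.126, 0.142 and 0.261, and they passed in 7, 7 and 2 of the 14 alternatives. *Postn*, the gene of periostin, was the most abundant of the list, at 1316 CPM or more in every sample, and *Fbn1*, the gene of fibrillin-1, had 398 CPM or more. The *Tnc* call was lost in 6 of 14 alternatives, among them without GCE/+ replicate 1 and without either GCE/GCE replicate, while *Fmod* and *Kera* passed in all 14.

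Among 7 collagen receptor genes *Itga11*, the integrin subunit of fibroblasts that binds fibrillar collagen, rose by 0.46 on the log2 scale (adjusted p = 0.0930, edgeR) and none fell, with 0 lower also at an unadjusted p under 0.05 and by DESeq2. Leaving out GCE/+ replicate 1 or GCE/GCE replicate 1 ended this call. *Itgb1*, the common β1 subunit, and *Ddr2*, a collagen-activated kinase, were the most abundant receptors, at 660 CPM or more and 396 CPM or more in every sample. The proprotein convertases and Adam proteases that release collagen ectodomains gave 0 calls in 7 genes by edgeR and by DESeq2, and 1 gene with an unadjusted p under 0.05. *Furin*, the protease that sheds types XIII, XXIII and XXV, had 95.0 and 98.2 CPM in GCE/+ and 98.3 and 101 CPM in GCE/GCE, and *Adam10* had 167 CPM or more in every sample. The genes of procollagen folding, processing and crosslinking gave 0 calls in 20 genes by edgeR, 4 with an unadjusted p under 0.05 and 2 higher by DESeq2, with a median of 0.04. *Serpinh1*, the collagen chaperone, and *P4hb*, a subunit of prolyl hydroxylase, led this list at 1489 CPM or more and 1210.1 CPM or more.

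Partners of the transmembrane chains were mostly without a call. Of 9 partners of types XIII and XXV at the neuromuscular junction and on axons, 0 passed by edgeR or DESeq2 and 0 had an unadjusted p under 0.05. The most abundant were *Ptprs*, a receptor phosphatase that binds type XXV collagen, at 519 CPM or more in every sample, and *Agrn*, the organizer of the neuromuscular junction, at 406 CPM or more. Among the hemidesmosome partners of type XVII, *Dst*, the gene of a plakin linker, rose by 0.39 on the log2 scale (adjusted p = 0.0855, edgeR). With offsets for transcript length *Dst* was at 0.08 and no longer passed, and it was also lost without GCE/+ replicate 1 and without either GCE/GCE replicate. Of 6 other proteins with a membrane-anchored collagenous stretch that were tested, 0 rose and 2 fell by edgeR. At an unadjusted p under 0.05 there were 0 higher and 3 lower, and by DESeq2 again 0 higher and 3 lower. *Scara5*, a ferritin receptor, fell from 104 and 90.5 CPM to 55.6 and 51.8 CPM (adjusted p = 0.0140, edgeR), and *Msr1*, a scavenger receptor of macrophages, fell from 7.65 and 7.50 CPM to 3.93 and 4.36 CPM (adjusted p = 0.0494, edgeR), as the macrophage markers given above also did.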

How the data were processed

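RNA-seq counts came from 2 *Osr1* GCE/+ and 2 *Osr1* GCE/GCE samples of sorted limb cells (separate embryos according to the methods), grouped by the sample titles. TopHat2 was used by the authors to map paired reads of 50 bp to mm9 with a UCSC gene model, and the authors deposited raw counts per gene from HTSeq in intersection-strict mode, without normalization. Counts summed to 52121596 to 61402140 per sample, which leaves counting error small except in the 4 lowest genes.

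Counts were filtered with filterByExpr, scaled by TMM, and compared between genotypes by the two-sided quasi-likelihood F test of edgeR 4.0.16 (R 4.3.3), with no covariates. P-values were adjusted by Benjamini-Hochberg over all 15645 genes, with a threshold of 0.1. SE and 95% intervals were derived from the F statistic. The script was tested on simulated data. The alternatives were DESeq2 1.42.0, RLE and upper quartile scaling, no filter, at least 10 counts in every sample, a robust fit, the replicate number as a block, transcript length offsets without and with that block, a threshold of 0.05, and each sample left out. Coding length was added after seeing the data. Exon lengths, proteins and strands are from GENCODE M21 (GRCm38), matched by symbol or synonym (98.0% with a length). Gene positions are from the RefSeq gene annotation, and promoters are from RefSeq GRCm38.p6. No mm9 position was used or converted. Tables and plots were made with Python (pandas 2.3.3, numpy 2.4.6, matplotlib 3.10.9).

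Genes named are the 10 collagen genes, *Osr1*, the type IX chains and, from each partner list, those past the threshold and the most abundant ones. A result for 1 gene of the partner lists is not reported here. *Xist*, single marker genes, *Comp*, *Dcn*, *Lum*, *Col2a1*, *Col11a2*, *Col5a3* and the ratios between genes were chosen after values were seen. The 10 genes and all lists were chosen with earlier results of these data known. The same-numbered samples' deviations from their group means correlated by -0.000365 over 12774 genes, so the replicate numbers were not taken to pair the samples.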

Additional observations from a re-analysis of the deposited data

How the results depend on the processing

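*Col25a1* passed the threshold in all 14 alternatives, and no other of the 10 genes passed in any alternative that kept all 4 samples. The number of genes past the threshold was 279, and it was 508 with DESeq2, 425 with no filter on low counts and 122 at an adjusted p under 0.05. Leaving out 1 sample at a time gave 197 to 984 genes, 1 to 3 of the 10 genes higher and 0 to 1 lower. The count of 984 came without GCE/+ replicate 2 (696 without GCE/GCE replicate 1), the 3 higher genes (*Col12a1*, *Col19a1* and *Col25a1*) without GCE/GCE replicate 2, and the 1 lower gene (*Col14a1*) without GCE/GCE replicate 1. In these fits the lone sample is assumed to vary like the other group. The sign of 3 genes near 0 turned under them, with log2 fold changes of -0.21 to 0.29 for *Col20a1*, -0.39 to 0.39 for *Col22a1* and -0.14 to 0.11 for *Col17a1*. With the replicate number as a block 280 genes passed and *Col25a1* was at 0.79. The block changed no call among the 10 genes. Of the other genes followed through all alternatives, it lost *Tnc*, *Itga11* and *Dst* and added *Col9a3*, *Comp*, *Dcn*, *Col2a1* and *Col11a2*. Coding length moved 5 of the 10 ranks by level. The alternative with RefSeq protein lengths was not run, as no such table was used here. With 2 embryos per genotype and 79 to 263 counts per library, differences in *Col17a1*, *Col19a1* and *Col22a1* were poorly bounded.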
